A study of Mus musculus with 24 samples.

Results

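The data described here are the 8 libraries that compare OSK withdrawal with OSK in cells named for 24 months of age, 4 libraries in each group, out of 24 in the series. The members were taken from the library names and titles, so no measured value chose them, and the comparison was read across every gene in the deposited table. All cells were mouse ear fibroblasts carrying an OSK transgene, which encodes Oct4 (gene symbol Pou5f1), Sox2 and Klf4 and is switched on by the drug doxycycline. The OSK group had doxycycline for 6 days, and the withdrawal group had 6 days of it followed by 4 days without. Untreated cells of the same age (4 libraries) and the OSK and withdrawal groups named for 3 months (4 libraries each) served as further references, and they carried the same transgene. The labels do not name the promoter that drives the transgene, the strain, the number of animals or whether libraries came from separate cultures, so the p-values measure the spread between these libraries, which may be technical. The 2 groups also differ by 4 days in culture, and withdrawal cannot be told apart from that added time.

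OSK are transcription factors that open chromatin and can turn fibroblasts into pluripotent stem cells when they act for long enough. Early in that course fibroblasts lose parts of their mesenchymal programme, such as matrix and contractile genes, and gain division and epithelial genes. Ending the factors before pluripotency is reached is the basis of partial reprogramming, and the series used this arm to ask whether OSK switches Gsta4, whose enzyme couples glutathione to lipid aldehydes, on reversibly.

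Polyadenylated RNA was sequenced, and the 8 libraries held 23298057 to 27787594 reads assigned to genes. Values are deposited normalized counts, that is, reads divided by 1 factor per library. Changes were fitted with limma on the scale of log2(normalized count + 1), as withdrawal minus OSK, and understate the change of low genes, and a gene was called at a Benjamini-Hochberg adjusted p under 0.05 over 14138 tested genes. A signed number alone in brackets after a gene is its log2 change. Over the 12 libraries of 24 months, the OSK libraries lay apart from the other 8 along a first principal component of 59.1% of the variance, and the second component, of 12.2%, set the replicate 2 library of each group at its low end. Withdrawal replicate 1, withdrawal replicate 2 and OSK replicate 3 were the library farthest from their group's mean for 35.1%, 34.0% and 39.6% of tested genes, where an even share would be 25%. Of the 10 fibroblast markers, all were tested, and their summed level was 345922 to 560502 normalized counts with OSK and 433831 to 942858 after withdrawal.

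The factors were checked first, with all reads of a symbol counted together, so transgene and endogenous transcripts are not separated. Pou5f1, the key pluripotency factor, stood at 5151, 6258, 3243 and 3735 normalized counts in OSK replicates 1 to 4 and at 2.00, 6.71, 0 and 6.92 after withdrawal. Every OSK library was above every withdrawal library (-10.24 on the log2 scale, SE 0.606, limma adjusted p 2e-11). Sox2 stood at 6597, 6769, 3887 and 4851 with OSK and 107, 20.1, 95.8 and 84.2 after withdrawal (log2 change -6.35, SE 0.524, limma adjusted p 2.81e-09). Klf4, a factor that fibroblasts also express without a transgene, went from 9389.9, 11651, 5329 and 6719.8 to 657, 1609, 495 and 607 (log2 change -3.40, SE 0.312, limma adjusted p 1.39e-08). Withdrawal replicate 2 held the most Klf4 of its group and the least Sox2. The groups did not overlap for any of the 3 factors or for Gsta4 (two-sided exact permutation test of the means, p = 0.0286 for each, the smallest that 70 arrangements can give).

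Gsta4 stood at 8538, 8459, 9159 and 5268 normalized counts with OSK and at 932, 847, 529 and 609 after withdrawal, against 273, 271, 379 and 292 in untreated cells. The fall was -3.43 on the log2 scale (SE 0.281, limma adjusted p 2.53e-09), and all 4 withdrawal libraries lay between the OSK and the untreated ones. Aldh3a1, an aldehyde dehydrogenase that oxidises lipid aldehydes, showed the same order of groups with a larger fall. It went from 49154, 66614, 36967 and 35636 with OSK to 279, 363, 423 and 298 after withdrawal (log2 change -7.08, SE 0.26, limma adjusted p 3.69e-14), and untreated cells held 110.2, 104, 124 and 117. The level after withdrawal was above untreated for both genes, by 1.24 on the log2 scale for Gsta4 (limma adjusted p 0.0286) and by 1.56 for Aldh3a1 (limma adjusted p 0.00372). The Gsta4 difference from untreated lost its call without untreated replicate 1, 2 or 4 or withdrawal replicate 1 or 4, with values of 1.11 to 1.38 over all alternatives.

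**Figure D1:**
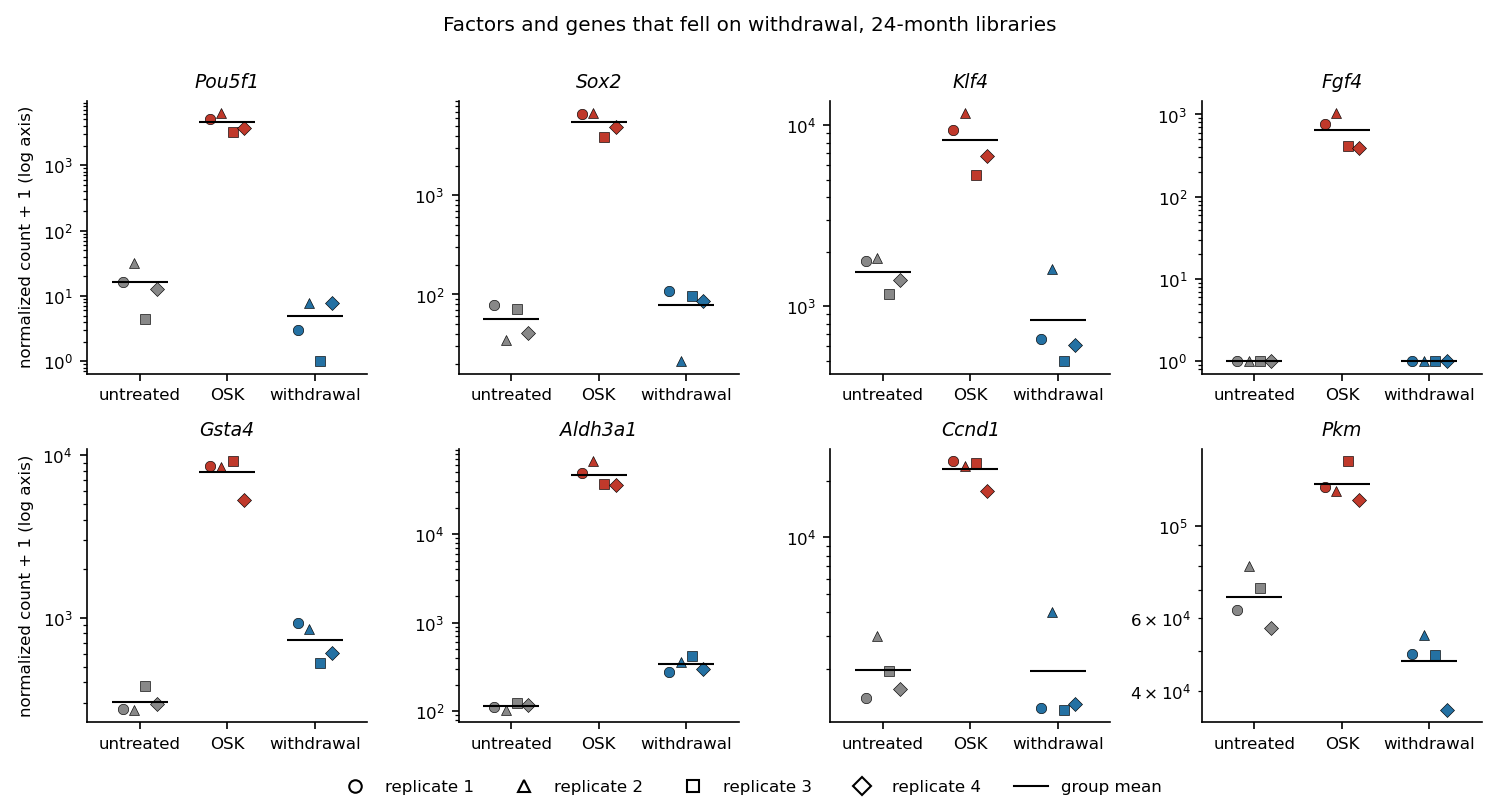
Normalized counts plus 1 (log axis) of 8 genes in the 12 libraries of 24 months, by group. Each symbol is a library, its shape gives the replicate number, and the bar is the group mean; for every gene shown the 4 OSK libraries lie above the 4 withdrawal libraries, and Fgf4 is at 0 in all untreated and withdrawal libraries.

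Across the transcriptome, withdrawal and OSK differed for 6502 of 14138 tested genes (46.0%), 3300 higher (23.3%) and 3202 lower (22.6%) after withdrawal. These shares are the background for every list count of this comparison below. The 2 groups of libraries did not overlap for 5298 genes (37.5%). At least 2-fold were 1547 rises and 1521 falls, 21.7% of tested genes together, and at least 8-fold were 357 and 327. The median called rise was 0.92 and the median called fall -0.95 on the log2 scale, and the median over all tested genes was 0.02. In bulk RNA a lower level from fewer cells of a type and from less RNA per cell cannot be told apart.

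**Figure D2:**
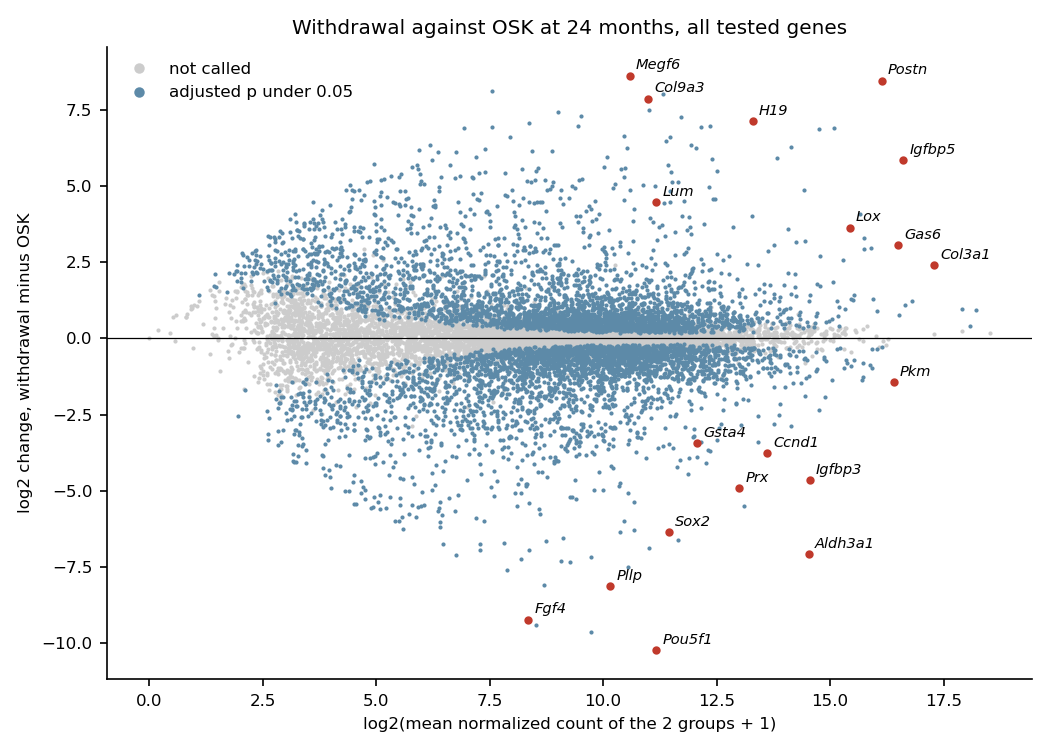
Log2 change (withdrawal minus OSK) of every tested gene against the log2 of its mean normalized count over both groups plus 1. Blue points are called genes, and red points are genes described in the text, from Megf6 (log2 change 8.62) to Pou5f1 (-10.24).

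Among genes with a mean of at least 100 normalized counts whose groups did not overlap, the 12 largest falls included Pou5f1 itself and 4 genes of the pluripotency list. Fgf4, a growth factor of the early embryo that Oct4 and Sox2 activate together in stem cells, stood at 770.5, 1037, 415 and 389 normalized counts with OSK and at 0 in all 4 withdrawal libraries, at least 202-fold lower against a floor of 3 reads per library. Tdh, the threonine dehydrogenase of mouse stem cells, went from 994, 1047, 495 and 418 to 0 in every withdrawal library, at least 228-fold lower. Trh, the precursor of thyrotropin-releasing hormone, went from 2454, 2961, 712 and 652 to 1.00, 0, 3.12 and 0, at least 523-fold lower, and OSK replicates 1 and 2 held the most. L1td1, an RNA-binding protein of pluripotent cells, fell from 2231, 1874, 1770.4 and 835 to 9.02, 12.3, 32.3 and 2.31 (log2 change -7.16, limma adjusted p 4.74e-08).

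The other 7 of these falls were of genes known from other tissues. Pllp, a membrane protein of myelin and epithelia, went from 2842, 2383, 1972 and 1871 to 22.1, 4.48, 2.08 and 9.23 (log2 change -8.14), and Krt13, an epithelial keratin, from 655, 515, 830.4 and 323 to 3.01, 1.12, 1.04 and 9.23 (-7.23). Crym, a protein that binds thyroid hormone, went from 2594, 7033, 1416 and 942 to 15.0, 43.6, 8.33 and 2.31 (-7.51), with the highest value in OSK replicate 2. Cacna2d2, a calcium channel subunit, was also highest there, at 1875 against 608, 259 and 584 in the others (log2 change -8.10). Mlc1 (-7.61), a membrane protein of astrocytes, Kcnf1 (-7.32), a potassium channel subunit, and Laptm5 (-7.32), a lysosomal protein of blood cells, were the others. All of these falls had limma adjusted p of 2.38e-06 or less.

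Most of the wider pluripotency list was too low to test. Of 30 listed genes 12 could be tested, and 5 were called lower (Tdh, Fgf4, L1td1, Fbxo15 and Trh) and 4 higher (Tet1, Dnmt3l, Klf2 and Klf5) after withdrawal. Of the 18 untested genes, Zfp42, Dppa2, Dppa4, Dppa5a, Lin28a, Lin28b, Tdgf1, Sall4, Tcl1 and Prdm14 were at 0 in all 4 OSK libraries. Nanog, a core pluripotency gene, stood at 6.32, 6.33, 8.43 and 9.36 with OSK and 13.0, 6.71, 7.29 and 2.31 after withdrawal (log2 change -0.21, not called, limma adjusted p 0.808). Klf2, a relative of Klf4, rose from 476, 614, 519.5 and 642 to 1904, 2167, 1783 and 2455 (log2 change 1.88, SE 0.204, limma adjusted p 1.44e-07). The count of 4 higher fell to 2 without OSK replicate 1, OSK replicate 3 or withdrawal replicate 4, and Dnmt3l (1.76, 0.72 to 2.67 over the alternatives) was not called without these or withdrawal replicate 1.

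Genes of cell division were mostly lower after withdrawal. Of 26 tested genes of cell division and DNA replication, 24 were called lower and 0 higher (median log2 change -2.90), where the background of lower calls was 22.6%. Mki67, the proliferation marker Ki-67, went from 6006, 6322, 5301 and 4099 to 309, 837, 372 and 384 (log2 change -3.61, SE 0.409, limma adjusted p 2.89e-07). Cenpf, a kinetochore protein, went from 2080.1, 2119.6, 2242 and 1667 to 94.2, 295, 155 and 155 (log2 change -3.64). Tyms and Ccne1 were the 2 members not called. Within the withdrawal group, replicate 2 held the most of both Mki67 and Cenpf, and it was still below every OSK library.

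Among cell cycle regulators, 6 of 15 tested were called lower (Cdkn2c, Cdkn2d, Ccnd1, Ccnd2, Rb1 and Rbl1) and 2 higher (Cdkn2b and Ccnd3). In either direction 53.3% of the list was called, near the 46.0% of all genes tested (22.6% lower and 23.3% higher). Ccnd1, cyclin D1, which drives entry into S phase, stood at 25408, 24117, 25005 and 17667 with OSK and 1233, 4019, 1210.2 and 1295 after withdrawal (log2 change -3.77, SE 0.295, limma adjusted p 1.32e-09), and untreated cells held 1388, 2966, 1945 and 1552. Cdkn2b, the inhibitor p15, went the other way, from 773, 723, 875 and 766 to 1265, 1461, 1049 and 1021 (log2 change 0.60, limma adjusted p 0.0073), and was also above the 555, 522, 556 and 502 of untreated cells (log2 difference 1.15, limma adjusted p 0.00164). Ccnd3 rose by 0.30 on the log2 scale (limma adjusted p 0.0173) and was not called without OSK replicate 3 or withdrawal replicate 2 (0.20 to 0.39 over the alternatives). The count of higher calls was 1 without OSK replicate 3 and 0 without replicate 2 of both groups.

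Of 21 tested glycolysis genes, 18 were called lower and 1, Ldhb, higher (median -0.97). Pkm, pyruvate kinase, went from 124513, 121757, 143616 and 115898 to 49065, 54552, 48663 and 35999 (log2 change -1.44, SE 0.144, limma adjusted p 4.47e-08). Gpi1, glucose-6-phosphate isomerase, went from 39950.2, 33692, 29245 and 38195 to 9389, 11342, 9513 and 7837 (log2 change -1.89, limma adjusted p 9.18e-11). Slc2a3, a glucose transporter, fell by 2.09 on the log2 scale (limma adjusted p 0.00301), and OSK replicate 2 held 1603 of it against 309, 172 and 215 in the other OSK libraries. Ldhb, the lactate dehydrogenase subunit of oxidative tissues, was the member that rose, from 554, 487, 757 and 664 to 2099, 1014, 1627 and 1713 (log2 change 1.36, limma adjusted p 6.09e-06).

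Other metabolic lists were mixed or smaller in size. Of 22 tested oxidative phosphorylation genes, 11 were called lower and 0 higher (median -0.30), for example Uqcrfs1 of complex III (log2 change -0.67, limma adjusted p 0.000819) and Ndufb8 of complex I (-0.60). That count was 6 without OSK replicate 3, 5 without withdrawal replicate 2 and 7 without withdrawal replicate 3. Cholesterol synthesis genes had 7 of 21 called lower and 1 higher, Sqle (0.69), beside 46.0% of all genes tested called in either direction, and the 7 were 6 to 10 without single libraries. In serine, glycine and one-carbon metabolism 5 of 16 were called higher (Phgdh, Mthfd2, Gldc, Gcsh and Mat2a) and 7 lower, for example Gcat (-1.35). Phgdh, which commits glucose carbon to serine, went from 1771, 1351, 3437 and 1182 to 3433, 3660.1, 3406 and 3392 (log2 change 0.97, limma adjusted p 0.00428), and OSK replicate 3 overlapped the withdrawal group. Gldc, the glycine decarboxylase, was at 3 reads or fewer in every OSK library and at 18.0, 14.6, 25.0 and 13.8 after withdrawal, at least 6.27-fold higher.

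Of 16 tested members of the glutathione S-transferase family, to which Gsta4 belongs, 11 were called lower and 0 higher (median -1.12), and close paralogs can share reads, which was not measured here, so single members, Gsta4 included, are uncertain. Gsta3 went from 109, 103, 159 and 140.4 to 5.01, 0, 4.17 and 1.15 (log2 change -5.47, SE 0.698, limma adjusted p 1.24e-06). Without withdrawal replicate 2, 1 member was called higher.

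Antioxidant genes beyond that family did not share a direction. Of 31 tested NRF2 targets and antioxidant enzymes, 13 were called lower and 7 higher (median -0.24). Over all genes tested 22.6% were lower and 23.3% higher, so the higher count is near the background. Gsr, glutathione reductase, went from 1621, 1280.4, 1744 and 1469.8 to 429, 779.9, 449.9 and 361 (log2 change -1.65, limma adjusted p 5e-07), and Ephx1, an epoxide hydrolase, fell by 2.03. Gclc, the catalytic subunit of the enzyme that starts glutathione synthesis, rose from 695, 461, 517 and 567 to 1538, 1125, 1631 and 2207 (log2 change 1.51, SE 0.192, limma adjusted p 1.17e-06). Its partner Gclm, the modifier subunit, was called lower, at 2049, 2347, 2327 and 1745 with OSK and 911, 1483, 1068 and 1051 after withdrawal (log2 change -0.92, limma adjusted p 1.25e-05); it was named after its values were seen. Sod3, the extracellular superoxide dismutase, rose from 3026, 2099, 2712 and 3205 to 7429, 8252, 10287 and 7635 (1.61).

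Of 24 tested aldehyde-detoxifying genes, 10 were called lower and 7 higher (median -0.06), beside backgrounds of 22.6% lower and 23.3% higher. Beside Aldh3a1, Aldh1b1 of the mitochondria fell from 257, 292, 189.7 and 242 to 79.2, 42.5, 30.2 and 42.7 (log2 change -2.38, limma adjusted p 5.02e-08). Aldh1a7 rose from 51.5, 25.3, 55.9 and 49.6 to 1375, 1433, 1009 and 405 (4.41), and it has a close paralog in Aldh1a1, so its reads are uncertain. Adh1, an alcohol dehydrogenase, rose from 227, 116, 193 and 213 to 951, 800.0, 406 and 819 (1.96, limma adjusted p 8.42e-07).

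Among 21 tested genes of DNA methylation and chromatin, 10 were called lower and 2 higher, where the backgrounds were 22.6% lower and 23.3% higher. Uhrf1, which brings Dnmt1 to replicating DNA, went from 1688, 1530.0, 1269 and 731 to 157, 321, 131 and 148 (log2 change -2.81, limma adjusted p 1.54e-06), and Hmga1, an architectural chromatin protein, fell by 2.86. Dnmt3a, a de novo DNA methyltransferase, rose by 0.82 (limma adjusted p 0.00172) and Kdm2b, a histone demethylase, by 0.29 (0.0455). Kdm2b was not called without OSK replicate 1, 2 or 3 or withdrawal replicate 2, 3 or 4 (0.19 to 0.41 over the alternatives), which left 1 higher.

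Epithelial genes had 4 of 17 tested members called lower (Cdh1, Krt18, Krt19 and St14) and 1 higher (Cdh3), where the backgrounds were 22.6% lower and 23.3% higher. Krt19, a simple-epithelium keratin, went from 5526, 7201, 9588 and 6215 to 723, 435, 312 and 461 (log2 change -3.92, SE 0.249, limma adjusted p 5.75e-11), and Cdh1, E-cadherin, from 161, 351, 213 and 435 to 95.2, 45.9, 20.8 and 15.0 (-2.93). Cdh3, P-cadherin, rose from 5.42, 18.99, 2.11 and 15.0 to 492, 1116, 485 and 612 (6.15, limma adjusted p 1.17e-08).

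The letters of promoters were searched for motifs of the factors, in the window from 250 bases before to 50 after each RefSeq gene start (GRCm38.p6), on both strands. Of the tested genes 11172 had a promoter in the table. The octamer ATGCAAAT, the motif that Oct4 binds through its POU domain, was in 13 of the 238 matched promoters of genes that fell at least 8-fold (5.46%). It was in 5 of 245 promoters of genes that rose at least 8-fold (2.04%), in 1.40% of tested promoters and in 1.75% of all 27025 promoters. Among all called genes, whatever the size of change, it was in 1.97% of promoters of those lower and 1.05% of those higher. The SOX core CATTGT was in 10.5% and 10.2% of those that fell and rose at least 8-fold and in 7.07% of tested promoters, and the KLF core CACCC in 68.1%, 75.9% and 63.1%. These shares were not tested, and a match is not a binding site. Of the 12 largest falls given above, those with a promoter in the table held no octamer, so the 4 promoters below, with their 250 bases before the gene start, were picked after their values were seen, to show the octamer (in capitals, either strand) in genes that fell at least 8-fold:
Acsbg1 (chr9:54661886-54662135, minus strand): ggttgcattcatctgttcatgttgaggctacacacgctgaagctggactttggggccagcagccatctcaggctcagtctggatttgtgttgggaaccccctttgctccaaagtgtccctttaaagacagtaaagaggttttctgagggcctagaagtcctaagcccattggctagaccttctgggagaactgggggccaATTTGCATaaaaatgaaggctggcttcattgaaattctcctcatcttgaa
Prx (chr7:27499074-27499323, plus strand): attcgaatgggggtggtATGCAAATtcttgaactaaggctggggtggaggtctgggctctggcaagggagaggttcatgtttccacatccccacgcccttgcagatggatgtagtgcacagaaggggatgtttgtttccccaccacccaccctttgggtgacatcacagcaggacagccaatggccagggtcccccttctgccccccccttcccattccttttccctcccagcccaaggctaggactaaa
Nrarp (chr2:25180508-25180757, plus strand): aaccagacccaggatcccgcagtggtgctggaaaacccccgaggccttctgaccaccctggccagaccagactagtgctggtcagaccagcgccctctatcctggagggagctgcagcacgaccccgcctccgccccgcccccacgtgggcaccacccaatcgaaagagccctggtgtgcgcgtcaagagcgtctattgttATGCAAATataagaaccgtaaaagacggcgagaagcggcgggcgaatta
Egln3 (chr12:54203875-54204124, minus strand): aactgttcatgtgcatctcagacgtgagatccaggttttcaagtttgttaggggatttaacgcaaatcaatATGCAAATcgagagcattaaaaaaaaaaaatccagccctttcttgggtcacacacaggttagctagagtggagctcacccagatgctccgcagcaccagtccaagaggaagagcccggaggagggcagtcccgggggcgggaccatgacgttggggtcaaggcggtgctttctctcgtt

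The octamer starts 50 bases before the start of Acsbg1, 233 before that of Prx, 49 before that of Nrarp and 179 before that of Egln3. Prx, periaxin, a scaffold protein of myelinating Schwann cells, stood at 15682, 16326, 15944 and 15208 with OSK and 489, 490.1, 439.5 and 717 after withdrawal (log2 change -4.91, SE 0.216, limma adjusted p 3.77e-13). Egln3, an oxygen-sensing prolyl hydroxylase, went from 10377, 9986, 8887 and 8142 to 1308, 640.0, 887 and 386 (-3.67). Acsbg1, a long-chain acyl-CoA synthetase, went from 477, 382, 184 and 269.6 to 3.01, 2.24, 8.33 and 3.46 (-6.00), and Nrarp, a feedback inhibitor of Notch signalling, from 593, 1018, 289.8 and 525 to 15.0, 28.0, 15.6 and 16.1 (-4.85). For each of the 4 genes every OSK library was above every withdrawal library.

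Most matrix genes were higher after withdrawal. Of 38 tested collagens and structural matrix genes, 27 were called higher and 1 lower (median 1.28), against backgrounds of 23.3% and 22.6%. Postn, periostin, a matrix protein of connective tissue, stood at 414, 185, 496 and 678 with OSK and 137244, 145449.5, 116786 and 174379 after withdrawal (log2 change 8.46, SE 0.33, limma adjusted p 6.7e-14). Col14a1, a collagen that sits on fibril surfaces, went from 10.8, 22.6, 22.1 and 15.9 to 3740.0, 4959, 3267 and 8447 (8.03). Col3a1, a fibrillar collagen of skin, went from 38255, 36527, 72834 and 59469.9 to 191922, 296076, 272039 and 311847 (2.41, limma adjusted p 1.22e-09). In all 3 genes the lowest withdrawal library was above the highest OSK library.

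Smaller changes were seen in Col1a1 and Fn1. Col1a1 went from 102519, 162317, 226189 and 156784 to 162448, 458841, 304465 and 385043 (log2 change 0.97, limma adjusted p 0.0069), and withdrawal replicate 1 was below 1 OSK library. Fn1, fibronectin, went from 213406, 197744, 152133 and 266798 to 253755, 474525, 454249.6 and 409762 (log2 change 0.93, limma adjusted p 0.0137), and withdrawal replicate 1 was below 1 OSK library here too; it was not called without OSK replicate 3 or without replicate 2 or 3 of both groups (0.71 to 1.15 over the alternatives). Fbln5, a fibulin of elastic fibres, was the member called lower, from 81423, 72387, 73164 and 80106 to 31626, 24427, 35133 and 27887 (-1.38, limma adjusted p 1.67e-08). Igfbp5, an insulin-like growth factor binding protein held in the matrix, rose from 2586, 2396, 2772 and 6371 to 131336, 145582, 239906 and 265893 (5.85), and Gas6, a ligand of the TAM receptors, from 14027, 21439, 15062 and 25075 to 133361, 86189.7, 195122 and 244705 (3.06, limma adjusted p 1.85e-08). These 2, with Col3a1, Col1a1 and Fn1, had the largest differences in mean normalized counts, a quantity that grows with transcript length. Ahnak, a large scaffold protein, and Igfbp3 lay at the other end, with log2 changes of -1.25 and -4.64.

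**Figure D3:**
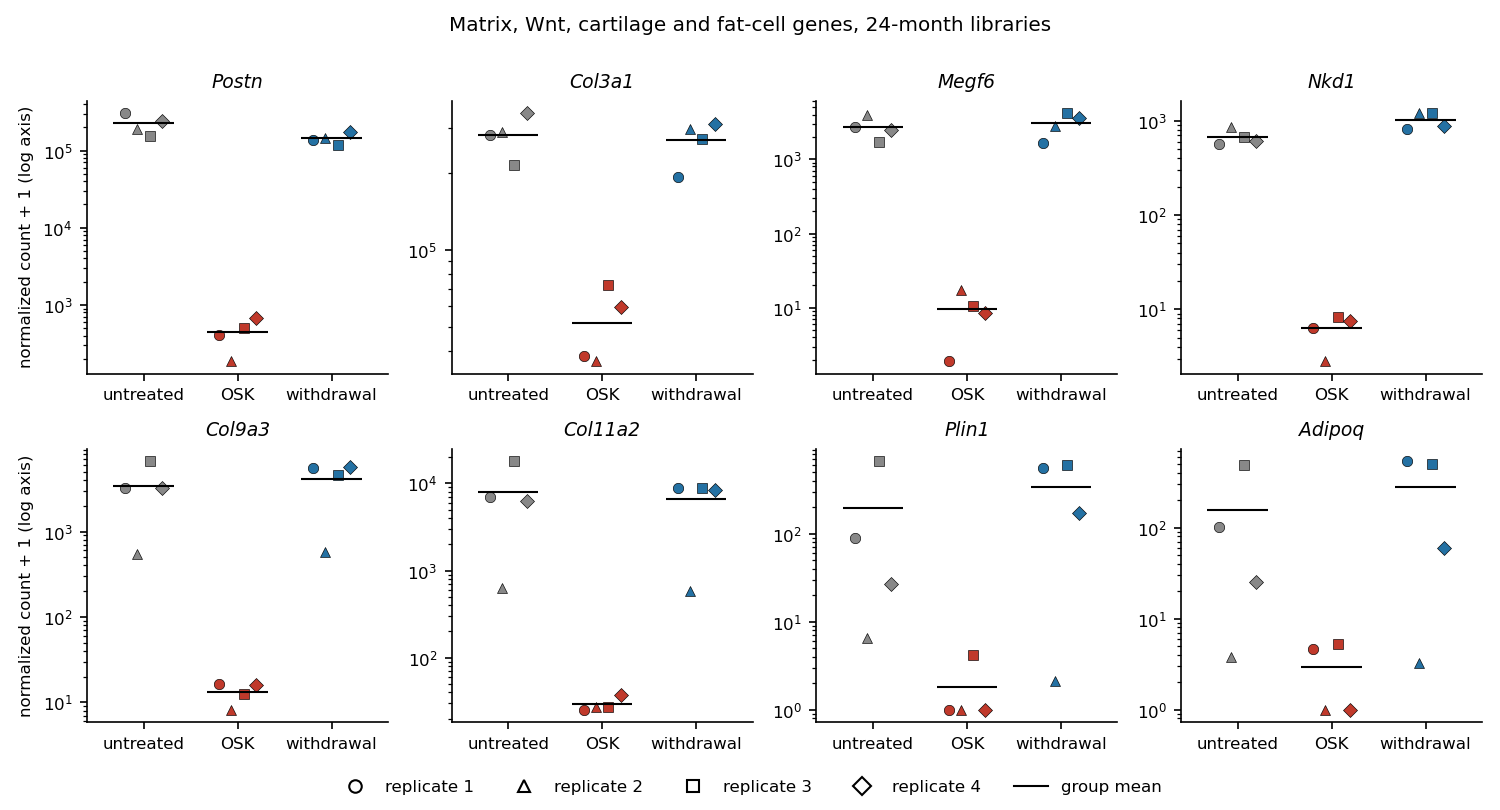
Normalized counts plus 1 (log axis) of 8 genes in the 12 libraries of 24 months; symbols are libraries, shapes are replicate numbers and bars are group means. Postn, Col3a1, Megf6 and Nkd1 are higher in every withdrawal than in every OSK library, while Col9a3, Col11a2, Plin1 and Adipoq are lowest in replicate 2 of the withdrawal and untreated groups.

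Of the genes with the largest rises outside the lists, Megf6, an EGF-repeat protein, went from 0.9, 16.3, 9.48 and 7.49 to 1679, 2774, 4178 and 3621 (log2 change 8.62, SE 0.535, limma adjusted p 4.8e-11). Pgm5, a phosphoglucomutase relative found at cell adhesions, was at 0, 0, 1.05 and 0 with OSK and 427, 176, 274 and 612 after withdrawal, at least 131-fold higher against 3 reads per library. Ism1, a secreted protein, went from 18.97, 17.2, 26.4 and 23.4 to 3646, 2720.2, 4511 and 5634 (7.49). H19, an imprinted noncoding RNA, went from 114, 81.4, 200.2 and 137 to 26766, 7520.5, 28649 and 17039 (7.12, limma adjusted p 2.64e-12), with the lowest withdrawal value in replicate 2. Matn4, a matrilin, rose by 6.98.

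Genes that crosslink and remodel matrix followed, with 16 of 27 tested called higher and 3 lower (Loxl3, Plod1 and P4ha1; median 0.74). Lox, lysyl oxidase, which crosslinks collagen and elastin, went from 6472, 7692, 5772 and 6488 to 79337, 88234, 82571 and 76783 (log2 change 3.63, SE 0.25, limma adjusted p 1.82e-10), while its relative Loxl3 fell from 14781, 14548, 15824 and 13367 to 1631, 3264, 1712 and 1864 (-2.85, limma adjusted p 1.04e-09). Mmp19, a metalloproteinase, rose from 249, 264, 309 and 385 to 1783, 1634, 1964 and 2001 (2.62). The lower count was 1 without OSK replicate 4, withdrawal replicate 1 or withdrawal replicate 4, and Plod1 (-0.41, -0.55 to -0.23 over the alternatives) was not called without these or OSK replicate 2.

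Of 25 tested mesenchymal transcription factors, 13 were called higher and 2 lower (median 0.67), against backgrounds of 23.3% and 22.6%. Creb3l1, which activates collagen genes, went from 194, 237, 229.7 and 269.6 to 1384, 2184, 1892 and 1661 (log2 change 2.92, SE 0.139, limma adjusted p 6.27e-13), and Runx1 from 637, 639, 488 and 466 to 3476, 1875, 5385 and 4091 (2.65). The 2 members called lower were T-box factors, Tbx15, from 5091, 6138, 7634 and 5622 to 2767, 3759.7, 2888 and 2395 (-1.05, limma adjusted p 0.000149), and Tbx18 (-1.02). Of other regulators of mesenchymal identity, Snai1, Snai2, Zeb2, Prrx1 and Prrx2 were called higher. Zeb1, Twist1 and Twist2 were among the 10 members not called.

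In the contractile apparatus 7 of 18 tested genes were called higher and 1 lower (median 0.52), where 46.0% of all genes tested were called and 23.3% were higher. The 7 were 11 with a replicate block and 5 without replicate 2 of both groups. Cnn1, calponin, went from 37.9, 51.5, 24.2 and 38.4 to 1035, 1571, 1156 and 1173 (log2 change 5.01, limma adjusted p 3.35e-09), and Itga11, a collagen receptor subunit of fibroblasts, from 359, 264, 204 and 156 to 2041, 9385, 2941 and 2229 (3.83). Actg2, enteric smooth muscle actin, was the member that fell, from 6633, 10620.4, 3955 and 3031 to 242, 1543, 238 and 149 (-3.99, limma adjusted p 0.000212). Withdrawal replicate 2 held the most of Itga11 and of Actg2 in its group. Acta2 and Tagln, the usual myofibroblast markers, were not called.

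Of 18 tested Wnt pathway genes, 13 were called higher and 1 lower (median 2.28). Nkd1, a feedback inhibitor that Wnt signalling switches on, went from 5.42, 1.81, 7.38 and 6.55 to 807, 1203, 1201 and 880.0 (log2 change 7.44, SE 0.458, limma adjusted p 3.57e-11). Rspo3, a ligand that strengthens Wnt signalling, was at 0, 0, 0 and 0.94 with OSK and 44.1, 63.8, 23.9 and 31.1 after withdrawal, at least 14.3-fold higher. Dkk2, a Wnt antagonist, was the member that fell, from 2484, 2945, 1657 and 3026 to 83.2, 186, 43.7 and 95.7 (-4.76, limma adjusted p 2.04e-05).

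The TGF-beta list was mixed, with 7 of 21 tested called higher and 4 lower (Tgfbr2, Skil, Bmp4 and Ccn2; median 0.21), beside backgrounds of 23.3% higher and 22.6% lower. Ltbp4, which binds latent TGF-beta in the matrix, went from 1853, 1252, 1331 and 1186 to 4587, 3282, 5881 and 11091 (log2 change 2.02, limma adjusted p 1.25e-05), and the ligand Tgfb2 from 863, 1131, 576 and 987 to 3354, 2493, 2782 and 4192 (1.86). Skil, a repressor of SMAD transcription that the pathway induces, fell from 1158, 1211, 843 and 763 to 186, 367, 149 and 189 (-2.21), and Bmp4 fell by 2.05. The lower count was 2 without withdrawal replicate 1.

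Among secreted factors associated with senescence, 8 of 16 tested were called higher and 5 lower (Ccl2, Ccl7, Igfbp3, Csf1 and Ereg). The backgrounds were 23.3% higher and 22.6% lower, and the 8 became 5 without OSK replicate 2. Hgf, hepatocyte growth factor, went from 8.13, 0.9, 5.27 and 3.74 to 882, 543, 476 and 722 (log2 change 7.06, limma adjusted p 2.48e-10). Ccl2, a chemokine that draws monocytes, went the other way, from 409, 721, 593 and 329 to 32.1, 12.3, 7.29 and 11.5 (-5.07, SE 0.37, limma adjusted p 4.14e-10). Igfbp3 fell from 57037, 48703, 44477 and 31981 to 985, 5935, 1364 and 1272 (-4.64), and the highest withdrawal value was that of replicate 2.

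Interferon response genes had 6 of 21 tested called higher and 2 lower (Oas2 and Zbp1, list median 0.88). Over all genes tested 23.3% were higher and 22.6% lower, so the higher count is near the background and the lower count is below it. Ifit3, an antiviral protein, went from 67.7, 49.7, 90.6 and 106 to 359.9, 485, 189 and 118 (log2 change 1.71, limma adjusted p 0.000655), and Ifit1 from 54.2, 12.7, 70.6 and 37.5 to 515, 380.4, 71.9 and 42.7 (2.06, limma adjusted p 0.0315). Zbp1, a sensor of nucleic acids, fell by 3.19 and Oas2 fell by 2.41 on the log2 scale. Ifit1 was not called without OSK replicate 2 or 4 or withdrawal replicate 1 or 2 (1.14 to 2.74 over the alternatives). The count of 6 became 3 without OSK replicate 2 or withdrawal replicate 2, and without replicate 2 of both groups 3 were higher and 4 lower.

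Immediate early genes and AP-1 had 9 of 17 tested called higher and 6 lower, beside backgrounds of 23.3% higher and 22.6% lower. The 9 became 5 without OSK replicate 2, OSK replicate 4 or withdrawal replicate 3. Fos went from 2692, 2229, 2957 and 2653 to 5848, 3809, 7321 and 7155 (log2 change 1.16, limma adjusted p 0.000344) and Fosl2 from 2330.3, 1806, 2434 and 2193 to 4135, 5165, 5676 and 4315 (1.13). Myc, a driver of growth, fell from 3088, 3216, 2521 and 2457 to 927, 660.2, 996 and 1171 (-1.61, limma adjusted p 1.77e-07), and Maff fell by 2.76. Of 16 integrated stress response genes 5 were called higher (Atf4, Atf5, Asns, Cebpb and Vldlr) and 2 lower, Cth and Slc3a2, near the 46.0% of all genes tested that were called. Cth, cystathionine gamma-lyase, which makes cysteine, went from 2165, 3315, 1755 and 1478 to 138, 103, 146 and 76.1 (-4.20, SE 0.285, limma adjusted p 1.58e-10), Slc3a2 fell by 1.08, and Cebpb and Vldlr rose by 0.71 and 0.54. Those 5 became 3 without OSK replicate 1 or 4 or withdrawal replicate 2 or 3, and 1 without OSK replicate 2, where Vldlr was not called (0.39 to 0.69 over the alternatives).

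**Figure D4:**
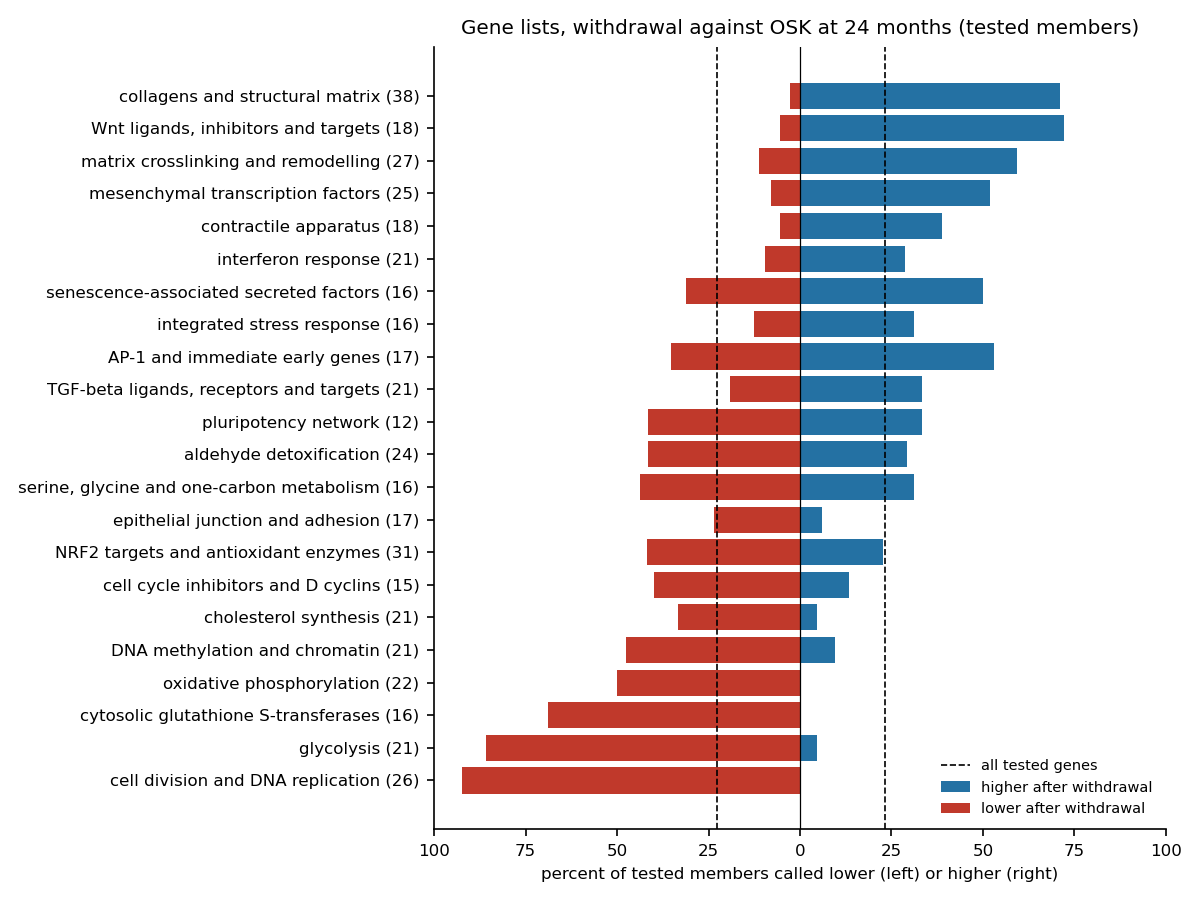
Percent of each list's tested members (their number in brackets) called lower (red, left) or higher (blue, right) after withdrawal. Dashed lines mark all tested genes, 22.6% lower and 23.3% higher; cell division lies at the bottom with 24 of 26 lower and collagens and structural matrix at the top with 27 of 38 higher.

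Cartilage genes rose after withdrawal, and those given here were lowest in replicate 2. The ear holds elastic cartilage, and of 17 chondrocyte markers 16 could be tested and all 16 were called higher (median 4.80), also without replicate 2 of both groups. The count was 14 to 16 without single libraries and 14 to 16 over the other alternatives. Col9a3, a chain of cartilage collagen IX, went from 15.3, 7.23, 11.6 and 15.0 to 5514, 575, 4539 and 5659 (log2 change 7.87, SE 0.671, limma adjusted p 5.26e-09). Col9a2 went from 3.61, 8.14, 11.6 and 1.87 to 2426, 148, 1378 and 1816 (7.29), and Col11a2 from 24.4, 26.2, 26.4 and 36.5 to 8948, 586, 8915 and 8302 (7.26). In each of the 3 genes replicate 2 was the lowest of the withdrawal group, and untreated replicate 2 was the lowest of its own, with 624 of Col11a2 against 7029, 17949 and 6209. The summed marker level was 11186 to 22057 normalized counts with OSK, 50506 to 235929 after withdrawal and 52241 to 336871 in untreated cells. Snorc was at 0 in every OSK library, Sox9, the master regulator of chondrocytes, stood at 531, 772, 446 and 521 there and 7600.3, 3885, 7986 and 7627 after withdrawal (3.55), and it was named after its values were seen. Whether a change in the share of cartilage cells takes part in these or in the matrix changes was not tested.

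Most fat-cell markers were higher after withdrawal. Of 6 tested adipocyte markers 5 were called higher (median 3.20), beside 23.3% of all genes tested. Summed levels were 334 to 1196 normalized counts with OSK, 887 to 6715 after withdrawal and 458 to 6986 in untreated cells. Plin1, the coat protein of lipid droplets, was at 0, 0, 3.16 and 0 with OSK and 564, 1.12, 608 and 169.5 after withdrawal (limma adjusted p 0.00123), and Adipoq, adiponectin, at 3.61, 0, 4.22 and 0 and 535, 2.24, 505 and 58.8 (log2 change 5.26, limma adjusted p 0.00265). Both were near 0 in withdrawal replicate 2, so the groups overlapped. The count of 5 was 3 without OSK replicate 4 or withdrawal replicate 1, 3 or 4.

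The labelled cell type was present by its markers in both groups. Of the 10 fibroblast markers 7 were called higher after withdrawal and 2 lower (Thy1 and Pdpn). Lum, lumican, went from 141, 169, 201 and 208 to 5391, 2489.7, 7134 and 2618 (log2 change 4.48, limma adjusted p 5.48e-10), and Fap, a protease of activated fibroblasts, from 8.13, 15.4, 50.6 and 23.4 to 69.2, 142, 110.4 and 88.8 (2.27). Thy1, a surface protein of fibroblasts, fell from 22573, 33859.5, 17262 and 21485 to 6436, 20443, 4919.9 and 5422 (-1.58, limma adjusted p 0.00385), with withdrawal replicate 2 in the range of the OSK libraries. Pdpn (-0.91, -1.25 to -0.72 over the alternatives) was not called without OSK replicate 1, 2 or 4 or withdrawal replicate 1, 3 or 4, which left 1 lower.

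Of the keratinocyte, leukocyte and endothelial lists 2 of 6 tested markers each were called, against 46.0% of all genes tested. Keratinocyte markers had 1 of 6 tested called higher (Krt15, at least 7.81-fold) and 1 lower (Krt5, log2 change -2.46), with Krt1, Dsg3 and Ivl at 0 in all 8 libraries and sums of 350 to 960 with OSK and 487 to 541 after withdrawal. The lower count was 2 without OSK replicate 2 and 0 without withdrawal replicate 3 (Krt5 -3.64 to -0.90 over the alternatives). Leukocyte markers summed to 95.5 to 235 with OSK and 81.2 to 207 after withdrawal, with Csf1r higher (1.65) and Cd68 lower (-1.73). Csf1r was not called without OSK replicate 2 or 4 or withdrawal replicate 1 or 2 (0.79 to 2.21 over the alternatives), and 2 leukocyte markers were higher without OSK replicate 3 or withdrawal replicate 3. Endothelial markers summed to 1969 to 4188 with OSK and 586 to 1092 after withdrawal, with Tek, the angiopoietin receptor, lower (-3.33) and the factor Erg higher (3.61) among 6 tested, and 2 lower without OSK replicate 3 or withdrawal replicate 1.

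Schwann cell markers included S100b, which was called higher (1.89), and Mbp, which was called lower (-2.35). Sums were 1622 to 2110 with OSK and 984 to 3199 after withdrawal, and Sox10 was at 0 in the withdrawal libraries. S100b was not called when any library other than withdrawal replicate 2 was left out (1.37 to 2.68 over the alternatives). Of 3 tested melanocyte markers Mitf (1.70) and Dct (at least 3.68-fold) were called higher, with Tyrp1 and Mlana at 0 in all 8 libraries and sums of 81.3 to 103 and 163 to 286; Dct was not called when any OSK library or withdrawal replicate 1 or 3 was left out. The tested skeletal muscle markers Des, Ckm, Acta1 and Tnnt3 were not called, with Myog, Myf5 and Pax7 at 0 throughout and sums of 491 to 2602 and 632 to 2394. Whether these cells take part in any change was not tested.

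Set beside untreated cells of 24 months, the withdrawal libraries differed in 237 genes (1.68%), 88 higher (0.622%) and 149 lower (1.05%), of which 121 (0.856%) at least 2-fold. The OSK libraries differed from them in 6263 (44.3%), 3032 higher (21.4%) and 3231 lower (22.9%). These comparisons share libraries with the one described here, so their values are given side by side. Each count of withdrawal against untreated rested on single libraries, with 59 genes without untreated replicate 2, 111 without untreated replicate 1, 105, 93 and 69 without withdrawal replicates 1, 3 and 4, and 730 without withdrawal replicate 2. For Postn the log2 change was -9.08 with OSK against untreated and -0.61 after withdrawal against untreated (limma adjusted p 0.388). For Fgf4 they were 9.23 and 0.00, and for Ccnd1 3.60 and -0.17. Igfbp3 stayed above untreated by 2.12 (limma adjusted p 0.00998), with 269, 725, 382 and 379.7 in untreated cells against 985, 5935, 1364 and 1272 after withdrawal. Of the division genes 7 of 26 were below untreated (median -1.15), for example Cenpf (log2 difference -1.91, limma adjusted p 0.0146) and Mki67 (-1.70, limma adjusted p 0.0397). The count of 7 was 4, 0 and 3 without untreated replicates 1, 2 and 4, and 0, 14, 1 and 0 without withdrawal replicates 1 to 4. It was 14 by DESeq2, 13 with a replicate block, 2 with no filter on low values and 0 with only the 2 groups fitted. The Cenpf call was lost without untreated replicate 2 or withdrawal replicate 1 or 4, and that of Mki67 without untreated replicate 2 or 4 or withdrawal replicate 1, 3 or 4.

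The same contrast at 3 months shares no library with that at 24 months. It called 5988 genes (42.4%), and 4234 genes were called in the same direction at both ages, 1994 higher and 2240 lower, which is 65.1% of the calls at 24 months and 70.7% of those at 3 months. In opposite directions were 34. The difference between the ages was itself called for 445 genes (3.15%), 301 with a more positive (2.13%) and 144 with a more negative (1.02%) change at 24 months. That count was 287 and 788 without OSK replicate 3 of 3 months and withdrawal replicate 1 of 24 months. It was 283 without withdrawal replicate 4 of 24 months, and 273, 288 and 704 without withdrawal replicates 1, 2 and 3 of 3 months.

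Angpt4, an angiopoietin, had the largest positive difference in the main fit, but at 3.55 to 7.72 over the alternatives its rank may change. At 24 months it stood at 0, 0, 5.27 and 2.81 with OSK and 117, 81.7, 136 and 125 after withdrawal, and at 3 months at 56.2, 41.7, 35.8 and 44.0 and 24.0, 38.2, 35.2 and 60.5 (difference 5.91, SE 0.646, limma adjusted p 4.23e-05). The 3-month groups overlapped, the 24-month ones did not. Ndnf, a secreted neurotrophic factor, rose at 24 months from 8.13, 33.5, 93.8 and 34.6 to 281, 1135, 360.4 and 422 and stood at 50.6, 183, 147 and 319 and 20.0, 48.0, 161 and 127 at 3 months (difference 4.97, limma adjusted p 0.00859). Col14a1 rose at both ages, by 8.03 and 2.76 (difference 5.27, limma adjusted p 0.000208), with 622, 120.4, 633 and 542 in OSK libraries of 3 months. Megf6 (5.17), Pgm5 (5.42) and Galnt9 (4.80), a glycosyltransferase, were the others, and Pgm5 was at the floor with OSK at 24 months, so its size depends on the pseudocount, and its call was lost by edgeR on recovered reads.

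In the other direction, the stem-cell genes Fgf4, Tdh and Trh fell further at 24 months, with differences of -4.26, -4.17 and -5.03. Their OSK levels at 3 months were 35.6, 110.0, 31.0 and 37.9 for Fgf4, 24.4, 173, 94.9 and 55.5 for Tdh and 10.3, 144, 77.5 and 20.3 for Trh, below those at 24 months in every library. Each of the 3 differences was lost at a pseudocount of 0.1 and by edgeR on recovered reads, and that of Trh also by DESeq2. Rbfaos, an antisense transcript whose reads cannot be told from those of its sense partner because strand use is not given, had a difference of -4.96, which was lost at a pseudocount of 0.1, Filip1, a protein that binds filamin, of -3.98, and Plekhs1 of -5.03. Plekhs1 was lost without OSK replicate 1 or 2 or withdrawal replicate 2 or 3 of 24 months, without OSK replicate 1 or 4 or withdrawal replicate 1 or 2 of 3 months, at a pseudocount of 0.1, by DESeq2, by edgeR and with only the groups of the contrast fitted (-6.01 to -3.48 over the alternatives).

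Between the ages the lists differed for a few members. In the immediate early list 6 of 17 had a more positive change at 24 months, which became 3 without OSK replicate 1 or withdrawal replicate 1 of 3 months. Fosl2 rose by 1.13 at 24 months and fell by 0.49 at 3 months (difference 1.62, limma adjusted p 0.000187). Of 25 mesenchymal factors 5 had a more positive change, Creb3l1 among them (1.30), and of 38 matrix genes 5 did and 1 (Fbln5) had a more negative one. Those 5 matrix genes became 10 without withdrawal replicate 1 of 24 months and 11 by DESeq2. Gclc (1.38), Sod3 (1.33) and Adh1 (1.88) had positive differences and Cth (-2.24) a negative one. The median change of the cell division list was -2.88 at 3 months. For Gsta4 the difference was 0.29 (SE 0.397, limma adjusted p 0.732), which was not called.

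**Figure D5:**
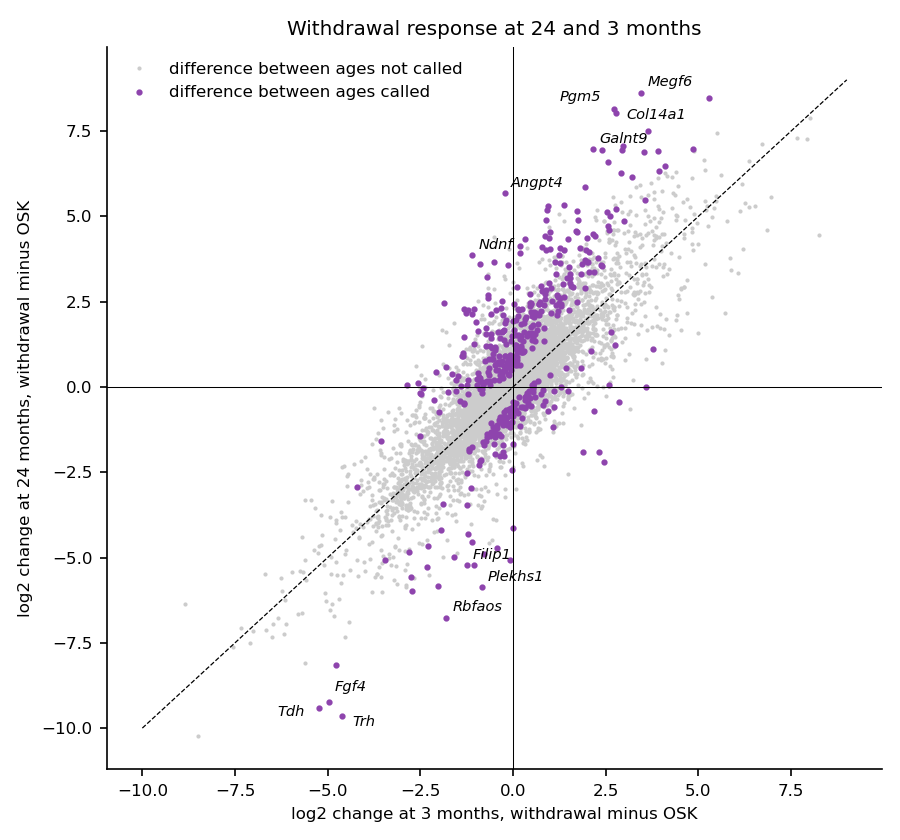
Log2 change (withdrawal minus OSK) at 24 months against that at 3 months for every tested gene; purple points are the 445 genes whose change differed between ages, and the dashed line marks equal change. Angpt4 lies near 0 at 3 months (-0.22) and at 5.69 at 24 months.

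Withdrawal libraries varied most in 5 genes. Ccn3, a matricellular protein, stood at 203, 8804, 343 and 107 and did not pass the test (2.40, limma adjusted p 0.0598); replicate 2 was the highest, as it was in untreated cells. Enpp2, autotaxin, stood at 1793, 34.7, 2736 and 1295 with the lowest value in replicate 2 (log2 change 5.25, limma adjusted p 0.00727). H2af-ps2, a pseudogene whose reads may belong to its parent, was at 0, 236, 312 and 409 after withdrawal and 0, 95.8, 222 and 202 with OSK, at 0 in replicate 1 of both groups (log2 change 0.70, limma adjusted p 0.816), and its sign turned without OSK replicate 1 (-1.14) or withdrawal replicate 4 (-0.12). Plin1 and Adipoq were the other members.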

How the data were processed

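RNA from TRIzol lysates was selected on oligo(dT) and made into NEBNext Ultra II libraries, per the labels' protocols. Per the submitters' processing notes STAR 2.7.1a and featureCounts 1.6.2 were used, and mouse and human builds (GRCm38, GRCh38) are listed; the annotation, strand setting and normalizing tool are not given in the sources used here. The deposited signal is a normalized count per gene symbol (26206 symbols, 24 libraries), and multiplying by 1 factor per library gave whole reads for 100% of values (tolerance 0.011). Libraries held 20693177 to 32587822 reads assigned to genes, and counting error is small beside the spread between libraries. Groups were taken from the titles. Replicate numbers met the pairing rule (every same-numbered pair above 0.1 in the correlation of deviations) for untreated and OSK libraries, at 0.138 to 0.306, but not for the other 24-month comparisons; 3-month libraries were not checked.

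Genes at 10 or more in at least 4 libraries (14138) were tested with limma 3.58.1 (R 4.3.3, trended and robust eBayes) on log2(value + 1) over all 24 libraries, with Benjamini-Hochberg adjustment. Alternatives were edgeR 4.0.16 and DESeq2 1.42.0 on recovered reads, other pseudocounts, filters and scalings, a replicate block and leaving out libraries, of which leaving out the same number in both groups was chosen after seeing the data.

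Genes were named as the factors and Gsta4, the 12 largest rises and falls with no overlap and a mean of at least 100, the 5 largest differences of means each way, the 6 largest differences between ages each way, the 2 largest called rises and falls of each list, and the 5 most variable in withdrawal libraries, without predicted genes. Some genes that these rules name are not reported here. Members and lists were chosen with earlier results of these data known.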

Additional observations from a re-analysis of the deposited data

Results flagged for a closer look

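In the 248 groups of 4 libraries screened (124 named genes, OSK and withdrawal at 24 months), 23 held a library whose gap to the others exceeded Dixon's 95% limit, 20 of them replicate 2. Chance flags about 1 in 20 independent groups, a rate that does not carry over to this set: its genes share libraries, 5 were named for their spread in withdrawal libraries, and a group whose highest value was under 50 could not be picked out. Withdrawal replicate 2 stood above its group for Actg2 (1543 normalized counts against 149 to 242 in the others), Ccn3 (8804), Ccnd1 (4019 against 1210.2 to 1295), Ephx1 (7686), Igfbp3 (5935 against 985 to 1364), Itga11 (9385), Klf4 (1609), Loxl3 (3264), Maff (266), Mki67 (837), Ndnf (1135), Phgdh (3660.1), Slc2a3 (170.1), Thy1 (20443) and Uhrf1 (321). It stood below its group for Col11a2 (586 against 8302 to 8948) and Galnt9 (762).

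OSK replicate 2 was above its group for Filip1 (495 against 78.0 to 93.0), Plekhs1 (892) and Slc2a3 (1603). The other libraries apart from their groups were OSK replicate 4, low for Ccnd1 (17667) and high for Igfbp5 (6371), and OSK replicate 3, high for Uqcrfs1 (3718).

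Of the same named genes 30 had a change that differed between 24 and 3 months by limma's interaction term. More positive at 24 months were Angpt4 (5.91), Pgm5 (5.42), Col14a1 (5.27), Megf6 (5.17), Ndnf (4.97), Galnt9 (4.80), Hgf (4.10), Ism1 (3.85), Fap (3.47), Postn (3.17), Aldh1a7 (2.20), Matn4 (2.13), Adh1 (1.88), Fosl2 (1.62), Gclc (1.38), Sod3 (1.33), Creb3l1 (1.30), Col3a1 (1.26) and Mmp19 (1.26). More negative were Trh (-5.03), Plekhs1 (-5.03), Rbfaos (-4.96), Fgf4 (-4.26), Tdh (-4.17), Filip1 (-3.98), Pllp (-3.36), Cth (-2.24), Fbln5 (-0.82), Pkm (-0.81) and Gpi1 (-0.69). Without some single libraries of either age 4 of these were not called, Aldh1a7 (1.94 to 2.61 over the alternatives), Gpi1 (-0.79 to -0.60), Pkm (-0.90 to -0.68) and Plekhs1 (-6.01 to -3.48). For Aldh1a7 they were all but withdrawal replicate 4 of 24 months and OSK replicate 2 and withdrawal replicates 3 and 4 of 3 months. For Gpi1 they were OSK replicates 1 and 4 and withdrawal replicates 3 and 4 of 24 months and OSK replicates 3 and 4 and withdrawal replicates 1 and 2 of 3 months. For Pkm they were OSK replicate 3 and withdrawal replicate 4 of 24 months and OSK replicate 3 and withdrawal replicate 1 of 3 months.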

How the results depend on the processing

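The 6502 genes called after withdrawal against OSK at 24 months were 6482 by edgeR, 6773 by DESeq2, 5471 with only the 2 groups fitted, 5827 to 6420 without single libraries and 5600 to 5973 without 1 replicate number in both groups; 3068 were also at least 2-fold (2970 of 6263 for OSK against untreated). Scaling by TMM or upper quartile moved the median of all genes by 0.0059 and 0.025 on the log2 scale. The 445 differences between ages were 849 by DESeq2 and 273 to 788 without single libraries. The 237 genes that differed between withdrawal and untreated were 640 by DESeq2, 10 with only the 2 groups fitted, 121 at 2-fold or more and 59 to 730 without single libraries; with only the 2 groups the Gsta4, Cenpf, Mki67 and Igfbp3 calls were lost, and the cause was not tested. Without 1 library, the mean differences of withdrawal from OSK were -5044 to -4039 for Pou5f1, -5996 to -5035 for Sox2, -8412 to -6305 for Klf4 and -7989 to -6692 for Gsta4, each at the exact permutation p of 0.0571, the smallest that 4 against 3 allows. Of 144 genes 123 kept direction and call under every alternative run, 17 lost the call under at least 1, among them Ifit1, S100b, Sqle, Vldlr and Pdpn, which was also lost by edgeR, DESeq2 and both scalings, Ccn3 and Cdkn1c gained one, and 2 that were not called turned sign, H2af-ps2 (-1.14 to 2.77 without single libraries) and Igf2r (-0.26 to 0.13, and 0.085 without replicate 1 of both groups).

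Library names carry letters that recur across treatments with the replicate number, and the labels do not say what they mark. Deviations of same-numbered OSK and withdrawal libraries correlated at 0.098, 0.318, 0.108 and 0.199 (other pairs -0.244 to 0.255), so 1 pair missed the 0.1 asked of every pair and no block was used. Same-numbered untreated and withdrawal libraries correlated at 0.032 to 0.604 (others -0.531 to 0.272), and untreated and OSK libraries at 0.138 to 0.306 (others -0.261 to 0.070). OSK replicate 3 correlated better with withdrawal replicate 1 (0.255) than with withdrawal replicate 3 (0.108). With a replicate block the counts were 6812 genes for withdrawal against OSK, 906 for the difference between ages, 654 for withdrawal against untreated and 6583 for OSK against untreated. Depth limits genes near the 3-read floor, where sizes depend on the pseudocount.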

Other observations

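Imprinted genes, which are expressed from 1 parental copy, were looked up after the H19 values had been seen, and their choice is not a test. Igf2, the growth factor gene beside H19, stood at 178, 316, 67.5 and 328 normalized counts with OSK and 5619, 4119, 5566 and 6666 after withdrawal (log2 change 4.84, SE 0.371, limma adjusted p 9.6e-10). Dlk1, an inhibitor of fat-cell differentiation, went from 30.7, 27.1, 25.3 and 22.5 to 1134, 1161, 809 and 539 (limma adjusted p 8.49e-09), and untreated cells held 2268, 5621, 4541 and 1777. Meg3 and Rian, noncoding RNAs of the same imprinted cluster as Dlk1, rose by 2.12 and 1.31, Mest by 2.11, Plagl1 by 2.26 and Grb10 by 0.66. Nnat, neuronatin, which is also imprinted, was called lower after withdrawal, and its call was not checked under the alternatives. Cdkn1c (1.03), Peg3 (0.85) and Igf2r (-0.08) were not called by limma, with adjusted p of 0.0619, 0.305 and 0.819.

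For Plagl1, a zinc finger factor, the change differed between the ages (2.26 at 24 months and 0.15 at 3 months, limma adjusted p of the difference 0.0241). That difference was not called without OSK replicate 1 or 2 or withdrawal replicate 4 of 24 months, or without OSK replicate 3 or withdrawal replicate 1 or 2 of 3 months (1.80 to 2.41 over the alternatives).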
